A study of Mus musculus with 48 samples.

Results

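The genes described here are a set of 42 listed genes of mitotic cell division, followed through 30 RNA-sequencing libraries of early B-lineage cells from C57BL/6 mice. A row was taken where the name before its first colon was one of the listed genes, and this found 40 of the 42 among 21025 gene models. No gene had several rows. The other 2, CDK1 and MKI67, stand in the data under an older name (CDC2A) and under a bare accession. They were found by RefSeq accession only, so their values are given beside the 40 and are never counted with them.

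A dividing cell enters mitosis when the kinase CDK1, bound to a B-type cyclin, is switched on by a phosphatase of the CDC25 family. Polo and aurora kinases then build the spindle, kinetochores attach chromosomes to it, the spindle checkpoint holds the cell until all are attached, and the anaphase-promoting complex ends the arrest by destroying cyclin B and securin. Many of these genes are transcribed late in the cell cycle through promoter elements bound by MuvB, B-Myb and FOXM1 complexes, and their RNA is highest in G2 and M phase. In the bone marrow, pro-B and large pre-B cells are known to cycle and small pre-B cells to rest.

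The product of Ikzf1 is Ikaros, a DNA-binding zinc finger protein, and it was deleted or knocked down here. Deleted pro-B cells were Ikzf1(fl/-) Cd79a(Cre/+) and their controls Ikzf1(fl/+) Cd79a(Cre/+), with 2 libraries each. The same pair of genotypes was sequenced as pro-B cells with high c-Kit, again with 2 libraries each, and on a Rag2(-/-) background that deleted and control cells both carried, with 2 libraries each. Controls therefore carry the Cre allele too, with 1 wild-type Ikzf1 copy and 1 floxed copy that Cre can also delete. Titles of ChIP samples with these genotypes write the pair as Ikzf1(∆/–) and Ikzf1(∆/+). The deletion comparisons thus do not set deleted cells against cells with both Ikzf1 copies intact. The recombinase is made from Cd79a, a gene that is active in B-lineage cells. Pre-pro-B cells were cultured and Ebf1(-/-), without the factor that commits cells to the B lineage. They carried the Ikzf1 hairpin Ik4056, the Ikzf1 hairpin Ik2709, the control hairpin Ren713 or an empty vector, with 4 libraries each. Wild-type pre-B cells, titled pre-B (total), gave 2 libraries. The labels do not state whether replicates are separate animals or cultures. The p-values therefore measure only how far these libraries spread, which may be technical.

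Steps in the deposited values gave an implied depth of 2.34 to 36.6 M reads for 26 libraries. In the other 4 (c-Kit-high deleted replicate 2, c-Kit-high control replicate 1 and both pre-B libraries) values lay on 2 step sizes, and no depth was set. The shallowest was c-Kit-high control replicate 2, in which CDC25C had 32 implied reads, the fewest of any member. IKZF1 RNA was 36.7 to 86.0 RPKM in the 6 deleted pro-B libraries and 56.2 to 123.8 RPKM in their 6 controls, values over the whole gene model that cannot resolve a deleted exon. Within each of the 3 pairs both deleted libraries lay below both controls. It was 23.7 to 60.6 RPKM with the 2 Ikzf1 hairpins and 106.1 to 145.3 RPKM with the 2 control constructs. The 12 B-lineage marker genes summed to 3034 to 7110 RPKM in the pro-B and pre-B libraries and to 44.8 to 109.9 RPKM in the 16 pre-pro-B libraries.

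All 40 members passed the filter on low values in every comparison, a level of at least 1 RPKM (reads scaled to gene model length in kilobases and to M mapped reads) in at least 2 libraries of a fit. Differences below are on the log2(RPKM + 1) scale with the standard error (SE) of the limma fit. Calls rest on an adjusted p under 0.05 (Benjamini-Hochberg over all genes tested). The mean of log2(RPKM + 1) over the 40 members was 5.53 and 5.64 in deleted pro-B libraries and 5.61 and 5.38 in their controls. It was 5.13 and 5.30 in c-Kit-high deleted libraries against 5.34 and 5.10 in c-Kit-high controls, and 5.01 and 5.25 in Rag2(-/-) deleted libraries against 5.29 and 5.26 in Rag2(-/-) controls. With Ik4056 it ran from 4.59 to 5.07, with Ik2709 from 4.70 to 5.04, with Ren713 from 4.72 to 5.14 and with the empty vector from 4.66 to 5.09. The pre-B libraries, at 4.01 and 3.97, lay below every other library.

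**Figure D1:**
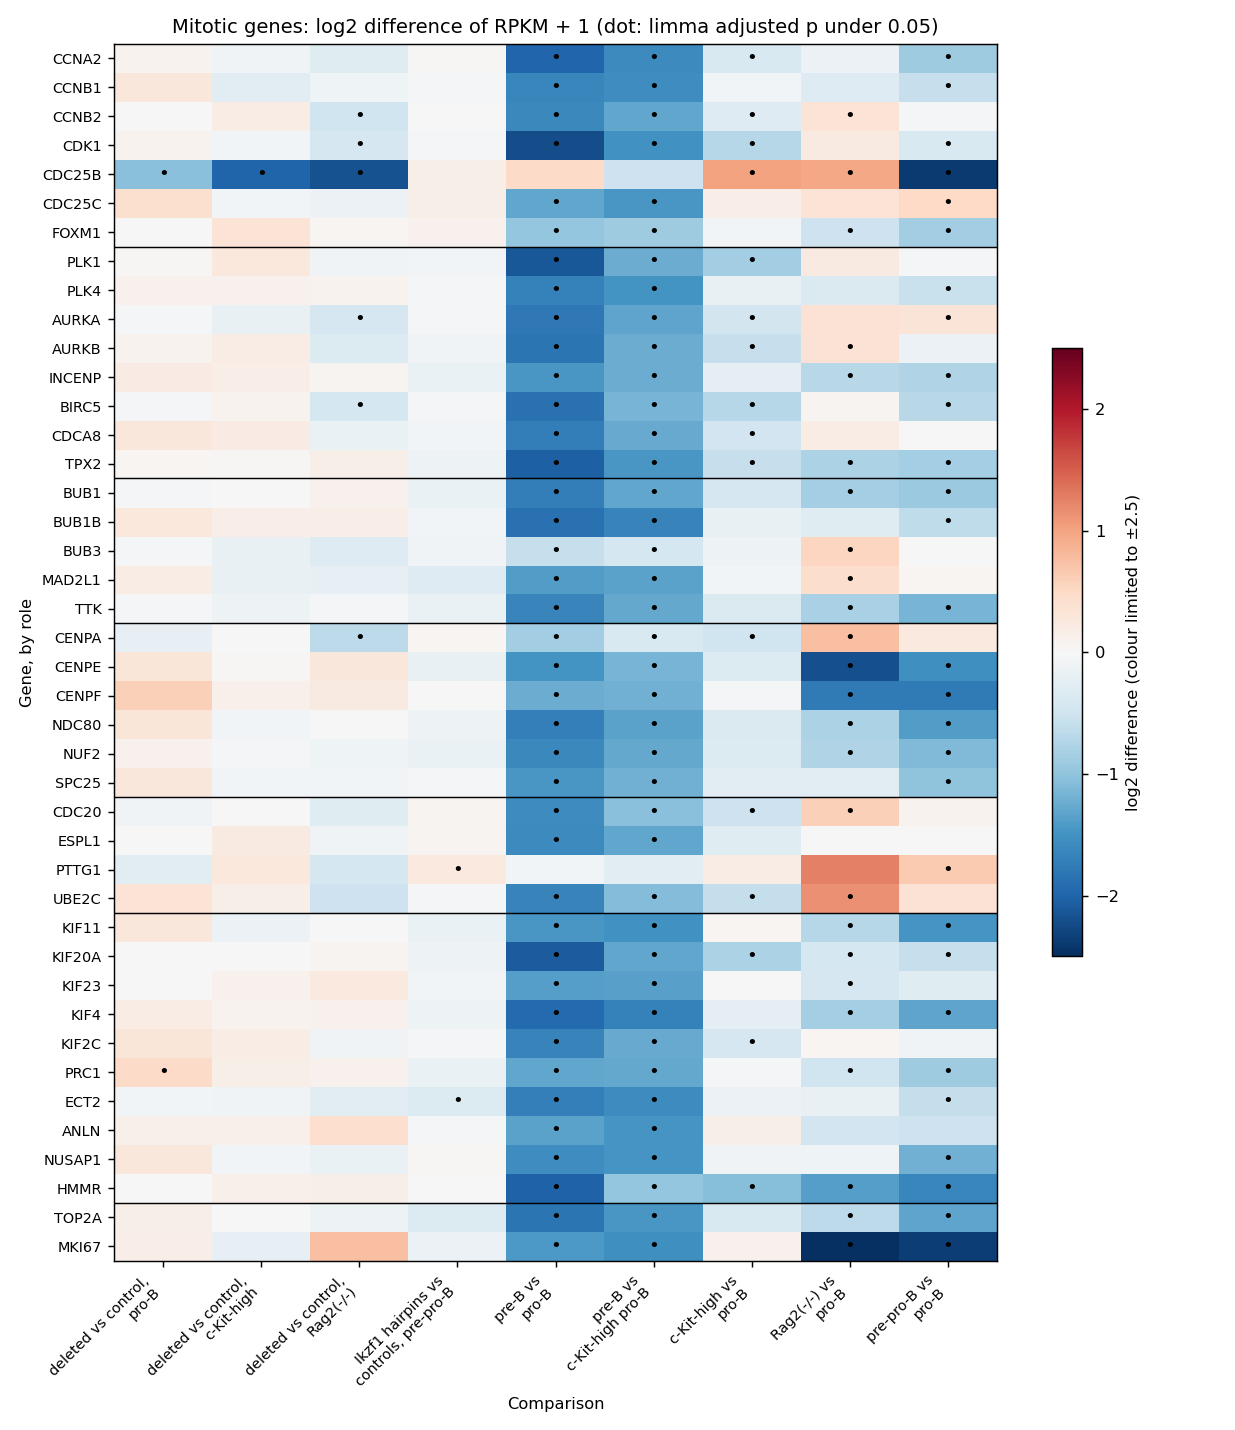
Log2 differences (colour) of the 42 listed genes (rows, grouped by role) in 9 comparisons (columns), with the group named first minus the second; a dot marks a limma adjusted p under 0.05. The 2 pre-B columns are called for nearly every gene, while in the 3 deletion columns CDC25B is the gene called in each.

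Pre-B cells were set against 2 kinds of pro-B control to ask how the mitotic genes stand after the pro-B stage. The pre-B cells were wild type and both kinds of control Ikzf1(fl/+) Cd79a(Cre/+), so that stage and genotype cannot be told apart. IKZF1 had 343.5 and 308.8 RPKM in the pre-B libraries, above all pro-B controls. The pre-B libraries also carry higher library numbers than the total pro-B controls. Against total pro-B cells, 38 of the 40 members fell and none was called higher, with a median log2 difference of -1.62. Over all 11937 genes tested the median was -0.07, 36.9% were called lower and 3812 genes were called higher. Against c-Kit-high pro-B controls 38 of 40 fell too and none was called higher, with a median of -1.29 against -0.11 over all genes. Of all genes 29.8% were called lower and 2289 genes were called higher. The 2 members not called were CDC25B and PTTG1 in both comparisons. In bulk RNA, fewer dividing cells and less RNA per dividing cell cannot be told apart.

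CDK1, the kinase that drives entry into mitosis, had 14.4 and 13.8 RPKM in pre-B cells, against 40.3 and 43.7 in c-Kit-high controls and 77.9 and 61.8 in total pro-B controls. The 3 groups did not overlap. The log2 difference to total pro-B cells was -2.22 ± 0.12 (SE, n = 2 each, limma adjusted p = 1.14e-08), and that to c-Kit-high cells was -1.51 ± 0.12 (limma adjusted p = 7.58e-07). CCNB1, a mitotic cyclin, had 3.12 and 2.32 RPKM in pre-B cells, against 10.5 and 9.30 in c-Kit-high controls and 12.1 and 8.91 in pro-B controls. CCNA2, the cyclin of S and G2 phase, fell to 29.1 ± 1.06 RPKM in pre-B cells, against 117.9 ± 5.46 in pro-B controls (SD, n = 2 each). Of the 6 cyclins and CDK1 activators matched by name, 5 fell in each comparison, CDC25B being the other.

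Polo-like kinase 1 (PLK1), which acts at centrosomes and kinetochores, had 25.7 and 29.6 RPKM in pre-B cells, against 80.4 and 55.3 in c-Kit-high controls and 132.7 and 113.2 in pro-B controls. AURKB, the kinase of the chromosomal passenger complex, had 33.1 and 39.0 RPKM in pre-B cells, against 134.0 and 125.9 in pro-B controls, a log2 difference of -1.83 ± 0.13 (SE, limma adjusted p = 9.33e-08). All 8 members of the group of polo and aurora kinases with the passenger complex fell in both comparisons, with log2 differences of -2.11 to -1.45 against total pro-B cells. Their levels in pre-B cells did not overlap those of either control group. With 2 libraries a group such separation is a weak mark: 19 of the 40 members also showed it between deleted and control pro-B cells. Its share over all genes was not taken. TPX2, which activates AURKA on the spindle, fell to 16.3 ± 1.74 RPKM in pre-B cells, against 69.7 ± 6.54 RPKM in pro-B controls, and BIRC5 (survivin, of the passenger complex) to 14.6 RPKM, against 56.2 ± 6.21 RPKM (SD, n = 2 each).

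All 5 spindle checkpoint members fell in both comparisons. BUB1B, a checkpoint kinase-like protein, fell by 1.86 on the log2 scale against total pro-B cells and BUB3, a checkpoint protein also present outside mitosis, by 0.57. All 6 centromere and kinetochore members fell. Of these the smallest difference against total pro-B cells was in CENPA, the histone H3 variant of centromeres, at 70.8 ± 5.89 RPKM in pre-B cells and 130.5 ± 9.80 RPKM in pro-B controls (SD, n = 2 each). Against c-Kit-high controls the BUB3, CENPA, CENPE and CENPF calls were lost without c-Kit-high control replicate 1, and those of BUB3 (log2 -0.26) and CENPA (-0.19) with median-ratio scaling. All 10 members for spindle kinesins and cytokinesis fell against both controls. KIF20A, a kinesin of the late spindle, fell by 2.08 and HMMR, a microtubule-binding protein, by 2.03 on the log2 scale against total pro-B cells. Against c-Kit-high controls KIF4, a chromosome-bound kinesin, fell by 1.69 and ECT2, the exchange factor that activates RhoA for cytokinesis, by 1.56. TOP2A, the topoisomerase that untangles sister chromatids, had 66.5 and 52.4 RPKM in pre-B cells and 227.3 and 199.7 RPKM in pro-B controls. MKI67, the coat protein of mitotic chromosomes used as a proliferation marker, had 58.8 and 45.9 RPKM in pre-B cells and 148.3 and 136.9 RPKM in pro-B controls (log2 -1.44, limma adjusted p = 0.00772). Without pre-B replicate 2 the MKI67 value was -1.26 (limma adjusted p = 0.051). Against c-Kit-high controls it was -1.54 (limma adjusted p = 0.0083), and that call was lost without the same pre-B library (-1.36, adjusted p = 0.0575) or without c-Kit-high control replicate 1 (-1.37, adjusted p = 0.0553).

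Among the anaphase genes, CDC20 (activator of the anaphase-promoting complex), UBE2C (its ubiquitin-conjugating enzyme) and ESPL1 (separase) fell in both comparisons. The exception was PTTG1 (securin, the inhibitor of separase), with 12.3 and 11.2 RPKM in pre-B cells, against 17.1 and 11.9 in c-Kit-high controls and 26.7 and 5.50 in pro-B controls. The pro-B control libraries lay on either side of the pre-B values. CDC25B, a CDC25 phosphatase known to act on CDK1 at centrosomes in G2, had 116.8 and 129.9 RPKM in pre-B cells, against 162.1 and 195.4 in c-Kit-high controls and 96.2 and 81.2 in pro-B controls. Its log2 difference was 0.47 ± 0.22 against total pro-B cells (SE, limma adjusted p = 0.0765) and -0.53 ± 0.22 against c-Kit-high cells (limma adjusted p = 0.0693). The difference to total pro-B cells was called with quantile normalization (adjusted p = 0.0102) and with median-ratio scaling (adjusted p = 0.0244). Without pro-B control replicate 1, 1 member other than CDC25B was called higher against total pro-B cells. CDC25B in pre-B cells thus lay between the 2 kinds of control, above one and below the other, where 38 other members were below both.

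**Figure D2:**
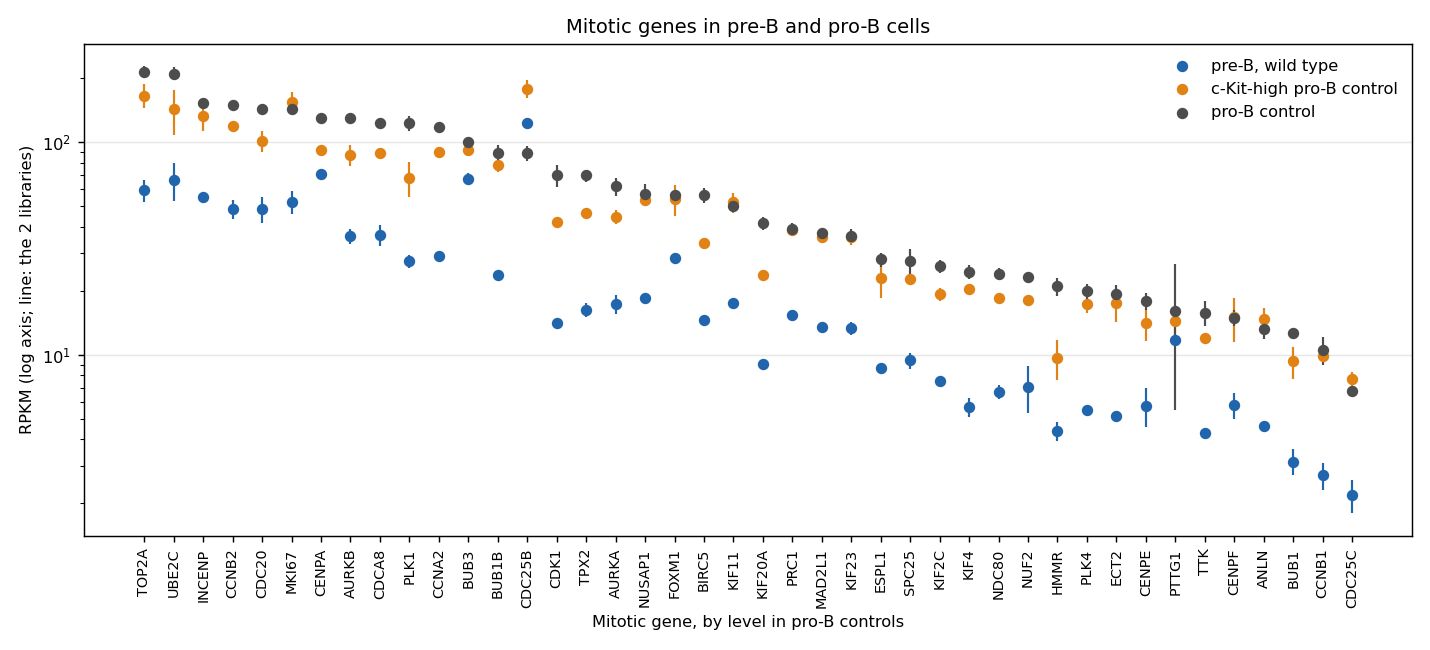
RPKM (log axis) of the 42 genes in wild-type pre-B cells, c-Kit-high pro-B controls and pro-B controls; points are means and lines join the 2 libraries of a group. The pre-B points lie lowest for every gene but CDC25B, where they lie between the other 2 groups, and for PTTG1 they lie within the range of the pro-B controls.

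Markers of other blood cells were also high in both pre-B libraries. The summed level of 10 granulocyte marker genes was 7687 and 7959 RPKM there at its lowest and highest, about 2.03% to 2.05% of all RPKM, and all 10 had a mean of at least 1 RPKM. It was 109.8 and 693.9 RPKM in c-Kit-high controls and 0.58 and 0.822 RPKM in pro-B controls, where 6 of the 10 were at 0 in both libraries. The summed level of 12 B-lineage genes was 4640 to 5036 RPKM in pre-B cells, against 5085 to 6537 in c-Kit-high controls and 3688 to 3724 in pro-B controls, and single genes of that list went opposite ways. VPREB1, a surrogate light chain gene, had 14.1 and 14.3 RPKM in pre-B cells, against 842.1 and 835.5 in pro-B controls, and IGLL1, its partner, 18.5 and 22.6 RPKM against 1405 and 1361. CD79A and CD79B, of the B cell receptor signalling unit, were higher in pre-B cells, at 1166 to 1815 RPKM, against 241.6 to 313.4 in pro-B controls. The controls carry the Cre allele of Cd79a and the wild-type pre-B cells do not. The 5 monocyte and macrophage genes summed to 497.2 to 648.9 RPKM in pre-B cells, against 41.3 to 78.9 in c-Kit-high controls and 17.2 to 18.8 in pro-B controls. The part of RNA from these cell types in the mitotic gene differences was not tested. Median-ratio scaling moved the median of all genes against c-Kit-high controls to 0.03 and that of the members to -1.11.

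Other mitotic genes, taken from lists of 114 genes chosen by function, went the same way as the members: of 112 tested, 98 fell in each comparison. None was called higher against c-Kit-high controls, while against total pro-B cells 2 were. FAM64A, a mitotic regulator, fell to 12.1 RPKM in pre-B cells, against 83.4 RPKM in c-Kit-high controls and 133.9 RPKM in pro-B controls. Of the DNA replication genes, taken for comparison with S phase, 48 of 48 fell in both comparisons. CCNE1 (cyclin E1) fell to 6.91 RPKM in pre-B cells, against 21.3 and 62.7 RPKM in the same 2 control groups. Among cell cycle regulators on further lists, the CDK inhibitor gene CDKN1B (p27) rose in both comparisons and stood at 169.4 RPKM in pre-B cells, against 120.8 RPKM in c-Kit-high controls and 36.2 RPKM in pro-B controls. RB1, the retinoblastoma protein gene, also rose in both and stood at 27.3 RPKM in pre-B cells, against 16.7 and 9.09 RPKM. E2F2, which encodes an E2F transcription factor, rose in both too and stood at 268.0 RPKM in pre-B cells, against 129.6 and 97.6 RPKM. Another CDK inhibitor gene, CDKN2A, fell to 0.291 RPKM in pre-B cells, against 11.1 RPKM in pro-B controls.

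The promoters of the members were read because nearly all members moved together between these stages. RefSeq windows of 250 bases before to 50 bases after an annotated start (build GRCm38.p6) were at hand for 33 of the 40 members and for CDK1 and MKI67. Of each gene only the window listed first was read, and any other start was not searched. They were searched on both strands for the cell cycle homology region TTTGAA, its variant TTTAAA, the CCAAT box and the Ikaros core motif TGGGAA. Motifs may overlap one another, and a match is a description of letters, not a site. Of the 33 member windows, 69.7% held TTTGAA, against 18.1% of 27018 windows of all genes, and 72.7% held CCAAT, against 37.9%. Both a CCAAT box and either form of the homology region stood in 66.7% of member windows, against 10.9% of all windows. TTTAAA stood in 30.3% of member windows and 13.2% of all, and TGGGAA in 18.2% of member windows and 25.5% of all. The windows of CCNB2, CDK1 and PLK1 are shown as examples with the homology region or its variant, and that of CDC25B as one without. A window without these letters did not set CDC25B apart: those of BUB1, MAD2L1, NUF2 and NUSAP1, which fell in both pre-B comparisons, hold neither form either, nor does that of PTTG1, which was not called. Capitals mark the homology region, its variant and the CCAAT box on either strand, and each window is written along its gene, 5′ to 3′. CCNB2 lies at chr9:70421505-70421804 on the minus strand, CDK1 at chr10:69352863-69353162 on the minus strand, PLK1 at chr7:122159185-122159484 on the plus strand and CDC25B at chr2:131186698-131186997 on the plus strand.
CCNB2: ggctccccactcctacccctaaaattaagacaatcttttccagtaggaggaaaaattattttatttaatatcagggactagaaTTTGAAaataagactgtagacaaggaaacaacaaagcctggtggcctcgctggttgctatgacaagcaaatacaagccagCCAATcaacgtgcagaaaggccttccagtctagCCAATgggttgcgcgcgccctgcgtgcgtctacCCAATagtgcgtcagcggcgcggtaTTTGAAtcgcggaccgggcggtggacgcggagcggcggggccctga
CDK1: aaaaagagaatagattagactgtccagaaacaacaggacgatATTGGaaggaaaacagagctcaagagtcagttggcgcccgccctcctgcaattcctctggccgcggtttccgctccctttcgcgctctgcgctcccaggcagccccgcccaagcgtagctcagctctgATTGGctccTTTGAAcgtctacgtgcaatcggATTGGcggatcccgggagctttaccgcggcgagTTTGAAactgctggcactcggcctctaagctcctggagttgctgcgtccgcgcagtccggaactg
PLK1: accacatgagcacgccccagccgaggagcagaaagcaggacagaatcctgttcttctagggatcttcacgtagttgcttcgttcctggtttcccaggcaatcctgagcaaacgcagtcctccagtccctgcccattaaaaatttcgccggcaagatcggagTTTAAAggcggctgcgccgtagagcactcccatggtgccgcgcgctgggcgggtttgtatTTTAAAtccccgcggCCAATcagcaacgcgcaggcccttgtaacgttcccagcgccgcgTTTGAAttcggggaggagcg
CDC25B: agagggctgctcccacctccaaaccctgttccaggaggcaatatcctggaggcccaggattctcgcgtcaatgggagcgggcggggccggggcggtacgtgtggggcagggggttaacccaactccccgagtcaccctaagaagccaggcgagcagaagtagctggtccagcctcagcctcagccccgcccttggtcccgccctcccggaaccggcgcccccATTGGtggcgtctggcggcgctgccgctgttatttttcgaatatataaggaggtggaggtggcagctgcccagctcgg
The windows of CCNB2 and CDK1 each hold 2 TTTGAA and 3 CCAAT motifs, and that of PLK1 holds 1 TTTGAA, 2 TTTAAA, 1 CCAAT and 2 TGGGAA. The CDC25B window holds 1 CCAAT box on its minus strand, and the letters of the homology region, its variant and the Ikaros core are not in it.

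The first deletion comparison asked what loss of Ikzf1 did to these genes in total pro-B cells. CDC25B had 41.5 and 43.0 RPKM in deleted cells, against 96.2 and 81.2 RPKM in controls. The groups did not overlap, and the deleted mean was 0.476 of the control mean (log2 -1.05 ± 0.22 SE, n = 2 each, limma adjusted p = 0.0047). The call missed the threshold without control replicate 1 (adjusted p = 0.0501), and without control replicate 2 another member was called lower as well. It was the only member that fell, against 9.89% of all genes called lower. PRC1, which bundles the microtubules of the central spindle, had 49.6 and 60.8 RPKM in deleted cells, against 41.7 and 36.8 RPKM in controls (log2 0.48 ± 0.13, limma adjusted p = 0.0211). It was the only member that rose, against 13.5% of all genes called higher, and its call was lost without deleted replicate 2 (log2 0.33) or control replicate 2 (log2 0.39). The median over the members was 0.10 and that over all genes 0.03.

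None of the other 38 members was called between deleted and control pro-B cells. CCNB1 had 12.6 and 13.1 RPKM in deleted cells, against 12.1 and 8.91 RPKM in controls (log2 0.28 ± 0.18, limma adjusted p = 0.32). CDK1 had 76.2 and 71.3 RPKM in deleted cells, against 77.9 and 61.8 RPKM in controls (log2 0.09 ± 0.12). The log2 difference was 0.03 ± 0.17 for PLK1, 0.08 ± 0.13 for AURKB and 0.17 ± 0.39 for MKI67, none of them called. Stage markers moved in the same comparison: 5 pre-B marker genes summed to 179.2 to 188.5 RPKM in deleted cells, against 45.1 to 46.2 RPKM in controls. The 4 pro-B marker genes summed to 70.5 to 89.4 RPKM in deleted cells, against 251.9 to 278.3 RPKM in controls. The first sum moved through IKZF3, at 64.1 and 76.3 RPKM in deleted cells, against 15.3 in both controls, and CD22, at 98.0 and 96.2 RPKM against 12.2 and 11.9. The other pre-B markers did not follow: IL2RA and CD2 were at 0 to 0.2 RPKM, against 0.485 to 1.62 in controls, and BCL2L11 was at 17.0 and 16.1 RPKM, against 16.9 and 15.8. The second sum moved mainly through DNTT, at 6.49 and 4.14 RPKM in deleted cells, against 189.7 and 165.0 in controls, while KIT was higher, at 32.6 and 29.4 RPKM against 20.9 and 18.7. The part of these markers in the CDC25B difference was not tested. In the other mitotic lists 6 of 112 genes rose and 2 fell, among them HJURP, the chaperone that loads CENPA, at 86.5 RPKM in deleted cells, against 54.3 RPKM in controls, and ANAPC11, a subunit of the anaphase-promoting complex, at 36.0 RPKM against 23.9 RPKM. WAPAL, which releases cohesin, had 24.2 ± 7.57 RPKM in deleted cells, against 2.29 ± 0.761 RPKM in controls (SD, n = 2 each). Among CDK inhibitor genes CDKN1A (p21) fell to 6.73 RPKM, against 53.5 RPKM in controls, and CDKN2A to 1.16 RPKM, against 11.1 RPKM. Cyclin E1 (CCNE1) fell to 22.3 RPKM, against 62.7 RPKM in controls.

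In c-Kit-high pro-B cells CDC25B had 41.9 and 45.5 RPKM after deletion, against 162.1 and 195.4 RPKM in controls. The groups lay far apart, with a deleted mean 0.244 of the control mean (log2 -2.003 ± 0.22 SE, n = 2 each, limma adjusted p = 6.31e-05). No other member was called lower, against 5.6% of all genes. None was called higher, against 1381 of 11937 genes, and 1 had an unadjusted p under 0.05 in that direction. PLK1 had 72.2 and 88.5 RPKM in deleted cells, against 80.4 and 55.3 RPKM in controls (log2 0.26 ± 0.17), and was called higher without control replicate 1 (log2 0.52, adjusted p = 0.042), as was 1 other member. The log2 differences of CCNB1 (-0.26 ± 0.18), CDK1 (-0.07 ± 0.12), AURKB (0.18 ± 0.13) and MKI67 (-0.20 ± 0.39) were not called. HJURP rose here too, to 150.6 RPKM in deleted cells, against 85.5 RPKM in controls. So did WAPAL, to 13.8 RPKM against 4.26 RPKM, and ANAPC11, to 19.8 RPKM against 12.6 RPKM. Deleted replicate 2 and control replicate 1 of this sort had a higher granulocyte gene sum and a higher histone share than their partners. These 2 libraries carry consecutive library numbers. Deleted replicate 1 is numbered with the total pro-B libraries, and control replicate 2 carries a higher number than the others of this sort. Deletion and set of library numbers are thus partly mixed here, and the part of the set was not tested. The 10 granulocyte genes summed to 147.6 to 342.7 RPKM in deleted cells, against 109.8 to 693.9 RPKM in controls. In the deleted pair MPO, ELANE, PRTN3 and CTSG of that list went the other way, with MPO at 37.9 RPKM in replicate 1 and 15.1 RPKM in replicate 2. Histone genes took 0.627% and 0.557% of RPKM in deleted replicate 2 and control replicate 1, against 0.0501% and 0.0623% in the others. The 5 pre-B marker genes summed to 228.9 to 257.5 RPKM in deleted cells, against 41.3 to 53.4 RPKM in controls, again through IKZF3 and CD22. The 4 pro-B marker genes summed to 625.8 to 725.6 RPKM in deleted cells, against 1467 to 1718 RPKM in controls, with DNTT at 413.4 and 306.9 RPKM, against 1138 and 1383. The part of these markers in the CDC25B difference was not tested. CDC25B was at 45.5 RPKM in the deleted library with the high histone share and at 41.9 RPKM in the other.

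On the Rag2(-/-) background CDC25B had 39.4 and 36.0 RPKM in deleted cells, against 237.4 and 126.2 RPKM in controls. The control libraries differed widely from each other, yet the lower of them lay above both deleted libraries (log2 -2.17 ± 0.22 SE, n = 2 each, limma adjusted p = 2.96e-05). Across the 3 settings the deleted cells thus had 36.0 to 45.5 RPKM of CDC25B, and their controls 81.2 to 237.4 RPKM. CDC25B fell in each, and each setting had its own controls. The deletion effect in Rag2(-/-) cells differed from that in total pro-B cells by -1.12 ± 0.32 on the log2 scale (limma adjusted p = 0.0356 for the interaction, the only member called, against 4.55% of all genes called lower). That call was lost under 10 of 17 other settings. The effect in c-Kit-high cells differed from that in total pro-B cells by -0.95 ± 0.32, which was not called (adjusted p = 0.10). No member was called in that interaction, against 6.7% of all genes called either way, and CDC25B was the only one of the 40 with an unadjusted p under 0.05. After CDC25B the smallest unadjusted p in the c-Kit interaction were those of CCNB1, MAD2L1 and NUSAP1.

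With CDC25B, 5 of the 40 members fell in Rag2(-/-) deleted cells, against 6.84% of all genes called lower. None was called higher, against 1850 of 11937 genes, or had an unadjusted p under 0.05 in that direction. The median over the members was -0.09 and that over all genes 0.06, and quantile normalization moved these to -0.14 and -0.07. With median-ratio scaling the member median was -0.23 and 10 members were called lower. With quantile normalization, or with only the compared groups in the fit, 3 were. CENPA had 134.0 and 146.4 RPKM in deleted cells, against 217.9 and 223.5 RPKM in controls (log2 -0.65 ± 0.11, limma adjusted p = 0.000892). CCNB2, a B-type cyclin, had 128.0 and 138.6 RPKM in deleted cells, against 193.5 and 185.6 RPKM in controls (log2 -0.51 ± 0.12). BIRC5 had 40.9 and 46.1 RPKM in deleted cells, against 58.2 and 59.96 RPKM in controls, a fall of 0.44 on the log2 scale. AURKA, the aurora kinase of spindle poles, had 56.2 and 62.0 RPKM in deleted cells, against 79.3 and 80.3 RPKM in controls, a fall of 0.43. CDK1, outside the count, had 57.4 and 62.4 RPKM in deleted cells, against 79.7 and 82.0 RPKM in controls (log2 -0.43 ± 0.12, limma adjusted p = 0.0221). These groups did not overlap, but apart from CENPA each of these calls was lost without at least 1 of the 4 libraries, and without deleted replicate 1 the CCNB2, BIRC5, AURKA and CDK1 calls were all lost. CCNB1 (log2 -0.10 ± 0.18), PLK1 (-0.08 ± 0.17), AURKB (-0.34 ± 0.13) and MKI67 (0.75 ± 0.39) were not called, though AURKB was with median-ratio scaling (-0.48, limma adjusted p = 0.0221) and in the fit of all 30 libraries (adjusted p = 0.0476). The 5 pre-B marker genes summed to 50.9 to 57.1 RPKM in deleted cells, against 26.6 to 51.2 RPKM in controls, and the 4 pro-B marker genes to 289.5 to 373.6 RPKM, against 249.9 to 672.7 RPKM. The second sum hides opposite moves. KIT (49.3 and 54.4 RPKM, against 25.9 and 16.9), GFRA1 and GFRA2 were higher in both deleted libraries than in both controls. DNTT was lower, at 140 and 81.0 RPKM against 546.2 and 163.1. The part of these markers in the member differences was not tested. MKI67 had 12.1 and 37.6 RPKM in deleted cells, against 14.1 and 10.8 RPKM in controls, and without deleted replicate 1 its difference was 1.53 (adjusted p = 0.000365).

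The differences in Rag2(-/-) cells followed the length of the gene models, as implied by the steps in the values. Over the 40 members the Spearman correlation of length with the log2 difference was 0.69, and over 11850 genes it was 0.36; it is a description across genes, which share their libraries. The median over all genes ran from -0.16 for models under 1500 bases to 0.33 for those over 6000 bases, and the member medians from -0.53 to 0.23. CENPA, at 1326 bases, and UBE2C, at 926 bases, stand at the short end, while MKI67, at 9972 bases, and CENPF, at 11010 bases, stand at the long end. With the length trend removed, a step added after the values were seen, 6 members were called lower. Leaving out control replicate 2 gave 3 members that fell, and leaving out deleted replicate 1 gave 2. Short ribosomal protein genes accounted for 9.71% and 9.15% of RPKM in Rag2(-/-) deleted libraries and 13.1% and 12.1% in Rag2(-/-) controls. The part of these shifts in the member differences was not tested. In the other mitotic lists 1 of 112 genes rose and 10 fell. HJURP was the gene that rose, to 104.2 RPKM in deleted cells, against 52.5 RPKM in controls. Of the regulators outside those lists, E2F2 fell to 57.9 RPKM in deleted cells, against 108.4 RPKM in controls, and CDKN1A to 32.3 RPKM, against 105.0 RPKM.

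**Figure D3:**
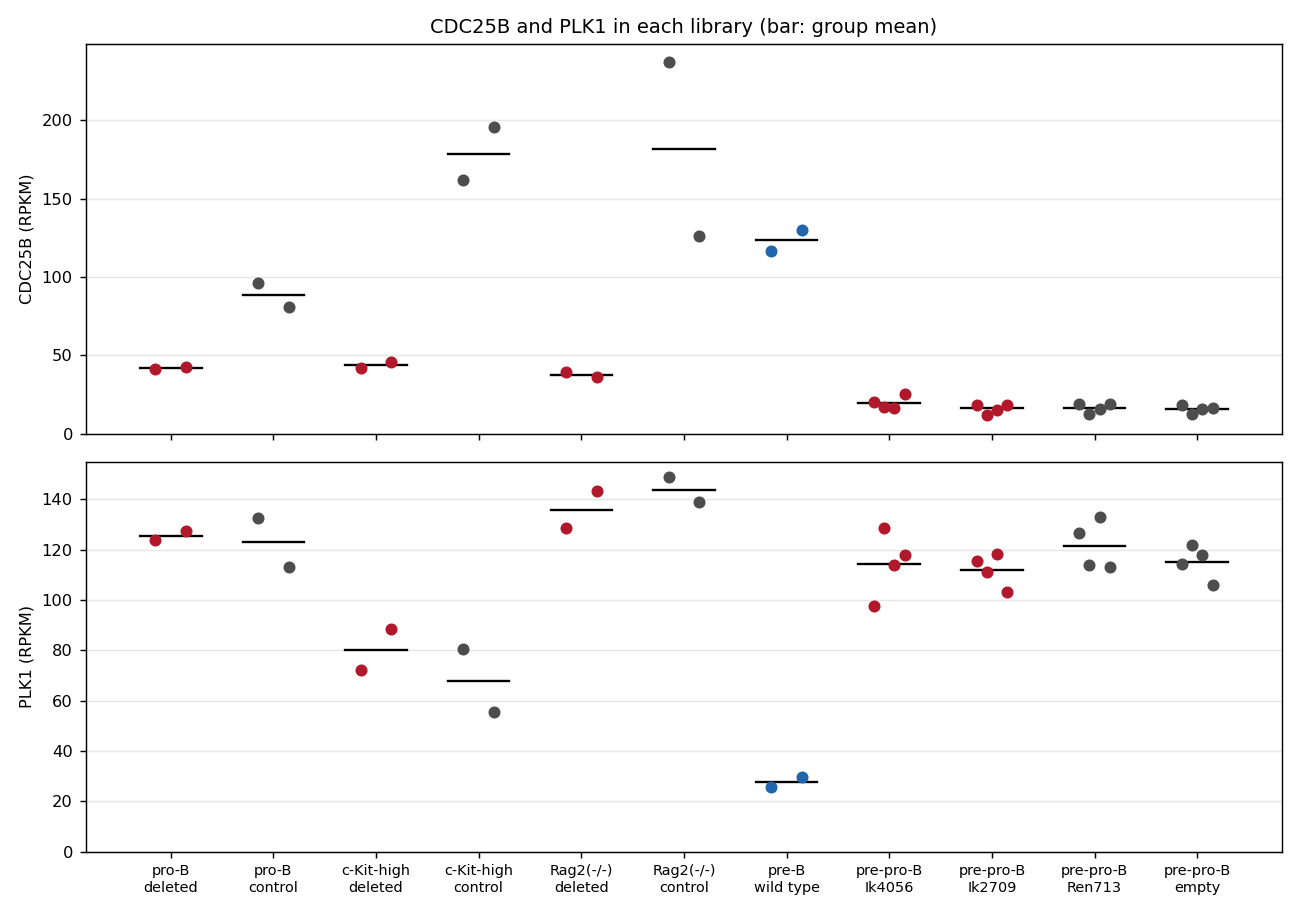
RPKM of CDC25B (top) and PLK1 (bottom) in every library (points) of the 11 groups, with each group mean as a bar. CDC25B lies at 36.0 to 45.5 RPKM in the deleted pro-B libraries and at 81.2 to 237.4 RPKM in their controls, and at 12.3 to 25.4 RPKM in all pre-pro-B libraries; PLK1 is lowest in pre-B cells.

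Ikzf1 knock-down in pre-pro-B cells asked whether the same genes respond before B-lineage commitment. The 16 libraries carry library numbers in 4 consecutive sets, each holding all 4 constructs and taken here as a run. CDC25B was low in these cells: it had 20.2, 17.5, 16.8 and 25.4 RPKM with Ik4056 and 18.5, 12.3, 15.5 and 18.7 RPKM with Ik2709. With Ren713 it had 18.9, 13.0, 15.7 and 18.8 RPKM, and with the empty vector 18.4, 12.8, 16.0 and 16.3 RPKM. The 8 knock-down libraries overlapped the 8 controls, and the log2 difference of 0.14 ± 0.12 (SE) was not called (limma adjusted p = 0.501). Of the members 1 rose, against 13.4% of all 10744 genes, and 1 fell, against 6.04%. PTTG1 had 23.1, 26.6, 25.5 and 22.3 RPKM with Ik4056 and 23.8, 26.5, 23.6 and 21.8 RPKM with Ik2709, against 20.6, 18.6, 20.8 and 17.7 RPKM with Ren713 and 21.3, 21.8, 20.9 and 19.5 RPKM with the empty vector. In every run both hairpin libraries lay above both control libraries. The mean was 24.1 ± 1.87 RPKM in knock-down and 20.1 ± 1.42 RPKM in control libraries (SD, n = 8 each), a log2 difference of 0.25 ± 0.06 (limma adjusted p = 0.00999). The call was lost with quantile normalization (adjusted p = 0.0761) and with median-ratio scaling (adjusted p = 0.111), and in a fit of all 30 libraries (adjusted p = 0.371). Without Ik2709 replicate 3 the number of members that fell was 2.

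ECT2 had 7.91, 8.99, 8.32 and 9.90 RPKM with Ik4056 and 10.99, 8.17, 10.9 and 11.5 RPKM with Ik2709. It had 13.2, 10.5, 11.1 and 13.9 RPKM with Ren713 and 12.9, 10.8, 11.7 and 14.8 RPKM with the empty vector. Both hairpin libraries lay below both controls in each run, with a log2 difference of -0.34 ± 0.09 (limma adjusted p = 0.0168). CCNB1 (-0.05 ± 0.13), CDK1 (-0.05 ± 0.07), PLK1 (-0.06 ± 0.07), AURKB (-0.09 ± 0.06) and MKI67 (-0.15 ± 0.31) were not called. With the run as a block 2 members rose and 11 fell, against 28.8% and 23.1% of all genes called higher and lower in that fit. CDC25B was then called higher (log2 0.14, adjusted p = 0.0461), with PTTG1. The 11 were TOP2A (log2 -0.33, adjusted p = 7.91e-05), ECT2, MAD2L1 (-0.32, adjusted p = 0.00552), CENPE, TTK, INCENP, KIF11, BUB1, PRC1, KIF20A and TPX2, and all but the first 3 differed by less than 0.2. TOP2A had 40.9 to 106.1 RPKM in knock-down libraries and 54.6 to 133.3 RPKM in controls, ranges that overlap widely, while within each run its lowest libraries were those with hairpins.

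**Figure D4:**
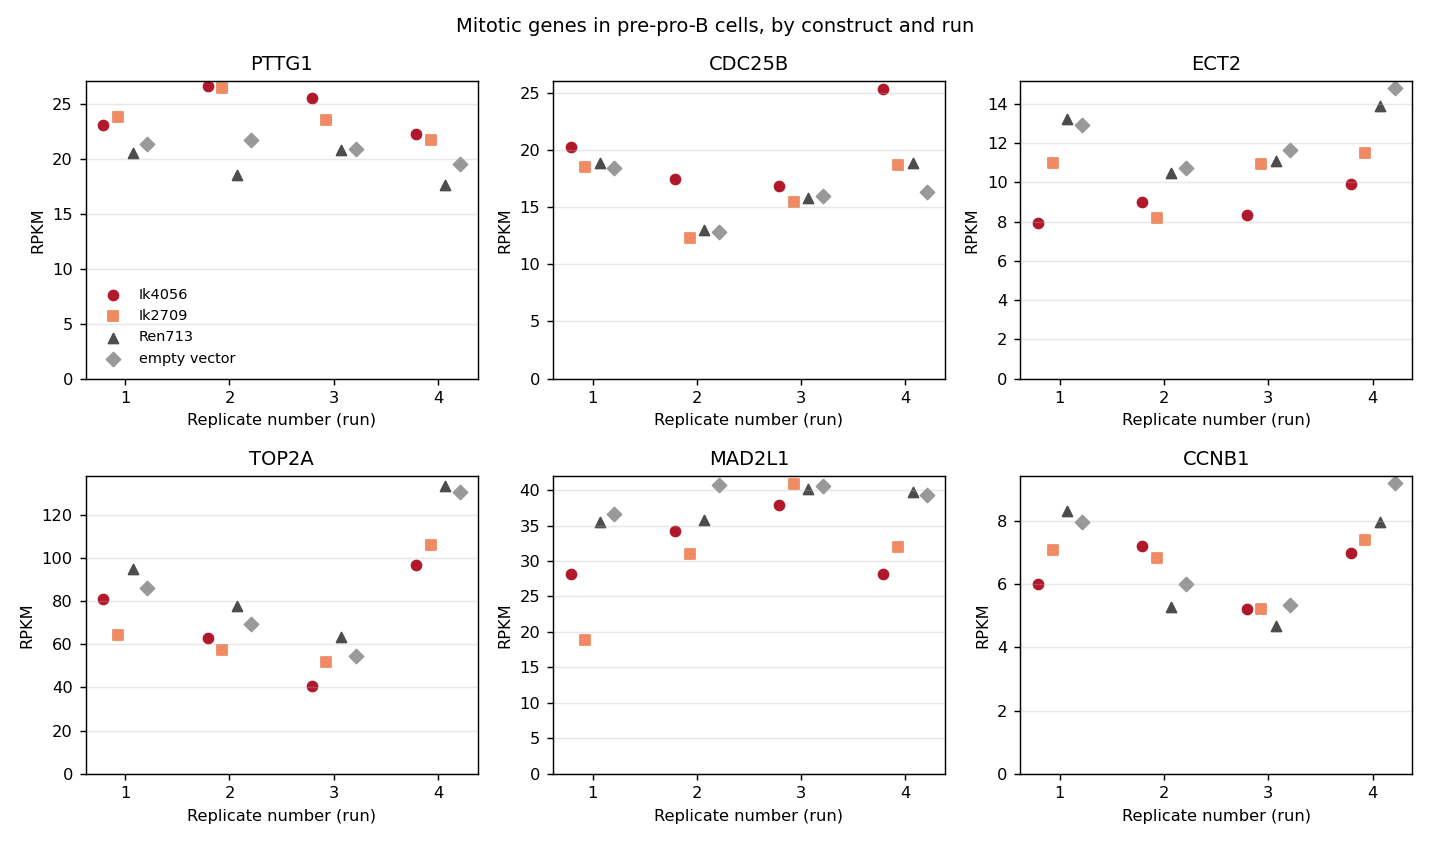
RPKM of 6 mitotic genes in the pre-pro-B libraries, by construct (symbols, hairpins left of controls) and replicate number, which marks a run of libraries. In each run both hairpins lie above both controls for PTTG1 and below them for ECT2, while CCNB1 has no such order.

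Cell type markers moved in the knock-down as well. The 10 granulocyte genes summed to 536.1 to 1365 RPKM in hairpin libraries and to 30.3 to 125.6 RPKM in controls, with S100A8, a gene of mature neutrophils, at 0 in all 16. The 5 monocyte and macrophage genes summed to 70.8 to 103.7 RPKM in hairpin libraries and to 11.2 to 17.8 RPKM in controls. EMR1 of this list went the other way, at 0.597 to 3.176 RPKM with hairpins and 1.834 to 7.445 RPKM in controls. In every run both hairpin libraries lay below both controls for it. Their part in the member differences was not tested. Of 111 other mitotic genes 2 rose and 3 fell. MELK, a kinase of mitotic cells, rose to 10.0 RPKM with hairpins, against 7.97 RPKM in controls, and CENPB, a centromere protein, to 94.9 RPKM against 78.8 RPKM. Of the DNA replication genes 9 of 48 fell and none rose, among them CCNE1 at 25.4 RPKM with hairpins and 35.9 RPKM in controls and CDC6, which loads the replicative helicase, at 14.4 RPKM against 19.5 RPKM. E2F2 fell to 9.73 RPKM with hairpins, against 17.9 RPKM in controls.

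The 2 Ikzf1 hairpins were set against each other. In the fit without the run as a block no member was called between Ik4056 and Ik2709, against 3.33% of all genes called either way. None had an unadjusted p under 0.05 in that fit. The smallest p were those of CDC25B (log2 0.28 ± 0.17), ECT2, AURKA and UBE2C. With the run as a block CDC25B was called higher with Ik4056 (adjusted p = 0.0142), against 15.1% of all genes called higher. PRC1, ECT2, KIF11 and AURKA then had an unadjusted limma p under 0.05 without being called. Between Ren713 and the empty vector no member was called, against 0% of all genes. In the fit without the block none had an unadjusted p under 0.05. AURKA, CDK1, AURKB and UBE2C had the smallest p of all 42 there. With the run as a block no member was called either, and AURKA had an unadjusted limma p of 0.0488.

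The next 3 comparisons use the same pro-B control libraries as their reference, so their values are given side by side and not correlated. In c-Kit-high against total pro-B controls 14 of the 40 members were lower, against 23% of all genes called lower, and 1 higher, against 27.8%. The member median was -0.31 and that of all genes 0.08. The c-Kit-high controls carry higher library numbers than the total pro-B controls, so that sort and set cannot be told apart. The Spearman correlation of implied length with the difference was 0.21 over all genes and 0.17 over the members. The all-gene median ran from -0.16 for models under 1500 bases to 0.41 for those over 6000 bases. HMMR fell by 1.06, PLK1 by 0.87, KIF20A by 0.79, BIRC5 by 0.72 and CDK1 by 0.71 on the log2 scale. UBE2C, AURKB, TPX2, CDC20, CENPA and CDCA8, another passenger complex member, fell by 0.47 to 0.60. The UBE2C call was lost in 8 of the other settings, among them without c-Kit-high control replicate 2 (log2 -0.25, limma adjusted p = 0.353). Those of CDC20, CENPA and CDCA8 were lost with quantile normalization, and those of TPX2 and CDC20 without pro-B control replicate 1 or c-Kit-high control replicate 2. CCNB1 (-0.06 ± 0.18) and MKI67 (0.10 ± 0.39) were not called. CDC25B was the member that rose, to 178.7 ± 23.5 RPKM in c-Kit-high controls, against 88.7 ± 10.6 RPKM in pro-B controls (SD, n = 2 each, limma adjusted p = 0.00286). Without c-Kit-high control replicate 2, the library of 2.34 M reads, 7 members fell, and without pro-B control replicate 1 also 7, with 2 that rose. In the other mitotic lists 4 of 112 genes rose and 32 fell, and among DNA replication genes 31 of 48 fell. CDKN1B rose to 120.8 RPKM in c-Kit-high controls, against 36.2 RPKM in pro-B controls.

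In Rag2(-/-) against Rag2-intact pro-B controls the members split: 8 were higher, against 10.9% of all genes, and 16 lower, against 20.7%. UBE2C had 511.4 and 418.6 RPKM in Rag2(-/-) controls, against 224.8 and 195.8 RPKM in pro-B controls (log2 1.14 ± 0.22, limma adjusted p = 0.00231). CDC25B, CENPA, CDC20, BUB3, MAD2L1 (a checkpoint protein that binds CDC20), AURKB and CCNB2 were the others that rose. The AURKB and CCNB2 calls were lost when any 1 of the 4 libraries was left out and with quantile normalization (log2 0.13 and 0.09). BUB3 and CDC20 lost theirs with quantile normalization and without pro-B control replicate 2, CDC25B without that library, and MAD2L1 without either pro-B control or Rag2(-/-) control replicate 2. At the other end MKI67 had 14.1 and 10.8 RPKM in Rag2(-/-) controls, against 148.3 and 136.9 RPKM in pro-B controls (log2 -3.42 ± 0.39, limma adjusted p = 0.000239). CENPE, a kinetochore motor, had 3.74 and 2.52 RPKM in Rag2(-/-) controls, against 19.6 and 16.2 RPKM in pro-B controls (log2 -2.21 ± 0.29). CENPF, a large kinetochore protein, fell by 1.77 and HMMR by 1.38. KIF4, BUB1, TTK, TPX2, NDC80, NUF2 and KIF11 fell by 0.71 to 0.85. The BUB1 call was lost in 8 of the other settings, and those of TTK, NUF2 and KIF11 without pro-B control replicate 1, the first 2 also without Rag2(-/-) control replicate 1. Without pro-B control replicate 1 the number that fell was 6. Without pro-B control replicate 2 the number that rose was 2, and without Rag2(-/-) control replicate 2 it was 5. CCNB1 (-0.32 ± 0.18), CDK1 (0.22 ± 0.12) and PLK1 (0.23 ± 0.17) were not called.

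This split followed gene length. Over the 40 members the Spearman correlation of implied length with the log2 difference was -0.73, and over all genes it was -0.44. The median over all genes was 0.26 for models under 1500 bases and -0.46 for those over 6000 bases, and the member medians were 0.76 and -1.77. The 16 members that fell lie on models of 2192 bases or longer, and the 8 that rose on models of 926 to 3113 bases. With the length trend removed, 5 members rose and 9 fell. The share of RPKM on ribosomal protein genes was 13.1% and 12.1% in Rag2(-/-) controls and 7.79% and 7.82% in pro-B controls. The Rag2(-/-) libraries also carry higher library numbers than the other pro-B libraries, a separate set, so that the Rag2 genotype and the set cannot be told apart. Of the other mitotic genes 13 rose and 35 fell. KIF20B (a kinesin), CEP152 (a centriole protein) and the cohesin gene SMC1A were among those that fell, and CKS2, a CDK-binding protein, rose to 105.2 RPKM in Rag2(-/-) controls, against 27.8 RPKM in pro-B controls.

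**Figure D5:**
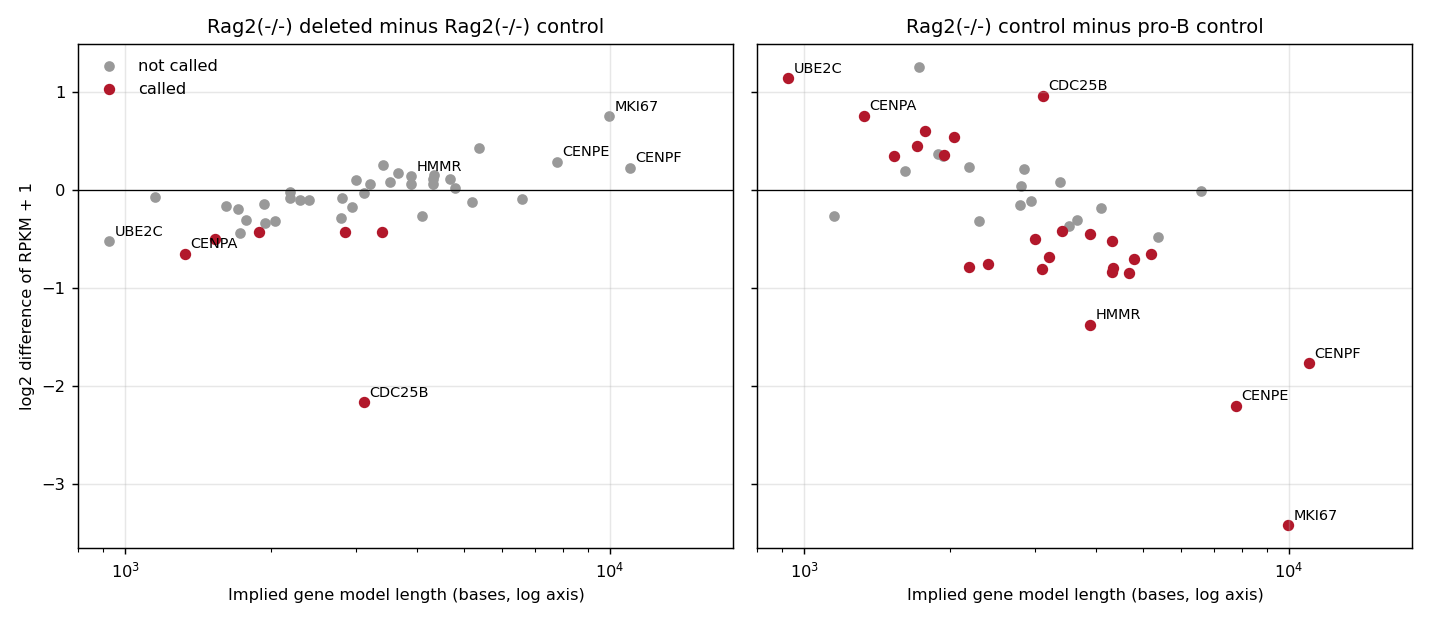
Log2 difference of each of the 42 genes (vertical) against the implied length of its gene model (horizontal, log axis), for Ikzf1 deletion in Rag2(-/-) cells (left) and for Rag2(-/-) against Rag2-intact pro-B controls (right); red points were called. Differences rise with length on the left (Spearman 0.69) and fall with it on the right (Spearman -0.73), and CDC25B, at 3113 bases, lies at -2.17 on the left and 0.96 on the right.

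Control pre-pro-B cells were last set against pro-B controls. Culture (cultured against sorted cells), genotype (Ebf1(-/-) against Cd79a(Cre/+)), construct, cell stage and set of library numbers all differ here and cannot be told apart. Of the 40 members 24 were lower, against 30.1% of all 12272 genes, and 3 higher, against 25.3%. CDC25B had 12.8 to 18.9 RPKM in the 8 control pre-pro-B libraries, with a mean of 16.2 ± 2.43 RPKM, and 88.7 ± 10.6 RPKM in pro-B controls (SD, n = 8 and n = 2, limma adjusted p = 2.76e-10). It had the smallest p of the members. MKI67 fell by 2.34, CENPF by 1.78, HMMR by 1.64, CENPE by 1.53 and KIF11, the motor that pushes spindle poles apart, by 1.46 on the log2 scale. NDC80 and KIF4 fell by 1.39 and 1.32, TOP2A by 1.32 and NUSAP1, a spindle microtubule protein, by 1.21. CDK1 (-0.38 ± 0.10) and CCNB1 (-0.57 ± 0.19) also fell, calls that were lost without pro-B control replicate 1, while PLK1 (-0.05 ± 0.12) and AURKB (-0.14 ± 0.09) were not called. AURKA, CDC25C, the CDC25 phosphatase of late G2, and PTTG1 rose, by 0.32, 0.49 and 0.65, and without pro-B control replicate 2 only 1 member rose. PTTG1 had 26.7 and 5.50 RPKM in the 2 pro-B controls, and its difference was 1.70 without replicate 1 of them and -0.40 without replicate 2. The Spearman correlation of length with the difference was -0.61 over the members and -0.31 over all genes. Of the other mitotic genes 9 rose and 64 fell.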

How the data were processed

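RNA was measured by strand-specific sequencing in 30 libraries, and 18 ChIP samples were not analysed here. The authors deposited RPKM per gene model. The submitters' processing notes name TopHat 1.4.1, HTSeq 0.5.3, DESeq 1.8.3 and mm9, without their roles. Low RPKM values are steps of 1 read each, from which depths and gene model lengths were inferred. RPKM values are not counts, so limma 3.58.1 in R 4.3.3 (trend and robust moderation, two-sided) was run on log2(RPKM + 1), a scale that understates changes of low genes. Genes with at least 1 RPKM in at least 2 libraries of a fit were kept: 14 pro-B and pre-B libraries (11937 genes, 7 residual degrees of freedom), 16 pre-pro-B libraries (10744 genes, 12 degrees of freedom) or all 30 (12272 genes). Benjamini-Hochberg adjustment ran over all genes of a fit. Scripts were tested on simulated data. Tables and plots used Python 3.11.15, pandas 2.3.3, numpy 2.4.6 and matplotlib 3.10.9.

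Members, lists and tests were chosen with earlier results of these data known. Named were the members called, up to 10 each way by size, with MKI67, CCNB1, CDK1, PLK1 and AURKB always, and up to 3 genes each way from the other lists. In the pre-pro-B libraries deviations from the construct means correlated between libraries of the same consecutive set of library numbers (24 pairs, lowest r = 0.52, median 0.77) and not across sets (72 pairs, median -0.22). Of the libraries, 16 of 16 correlated best with their own set. The main fits had no block, and the set was used as a replicate block in an alternative fit only. Alternatives were another pseudocount, filter and scaling, limma without trend and robust moderation, other samples in the fit, the block, and leaving out each library.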

Additional observations from a re-analysis of the deposited data

Results flagged for a closer look

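MKI67 stood apart in the libraries of the fourth pre-pro-B run. It had 47.22 RPKM with Ik2709, against 18.04 to 21.03 RPKM in the other 3 libraries of that hairpin. With Ren713 it had 59.33 RPKM in that run, against 19.7 to 25.7 RPKM in the other 3, and with the empty vector 55.43 RPKM, against 17.9 to 23.1 RPKM. In each case the gap to the nearest library exceeded Dixon's 95% critical value for 4 samples, as a share of the range. With Ik4056 MKI67 had 47.36 RPKM in that run, against 16.68 to 24.59 RPKM in the other 3, and stayed under that limit. CENPE and CENPF, which were not screened, were also highest in that run. CENPE had 9.08 to 11.29 RPKM there, against 2.753 to 4.968 in the other runs, and CENPF 7.378 to 9.442 RPKM, against 1.771 to 4.534. ECT2 had 8.174 RPKM in the second library with Ik2709, below 10.9 to 11.5 RPKM in the other 3, and passed the same limit. Of 32 groups of 4 libraries examined 4 passed it, and chance flags about 1 in 20 independent groups. The groups were of named genes only, and the MKI67 flags all come from the same run, so these groups are not independent.

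The effect of Ikzf1 deletion on CDC25B differed between the Rag2(-/-) and the Rag2-intact background by -1.121 on the log2 scale (limma adjusted p = 0.0356 for the interaction). That call was lost under most of the other settings. Deleted cells of both backgrounds had 36.0 to 43.0 RPKM, while Rag2(-/-) controls had 237.4 and 126.2 RPKM and Rag2-intact controls 96.2 and 81.2 RPKM. The Rag2 genotype and the set of library numbers cannot be told apart. CDC25B was lower in both deleted libraries than in both controls on each background.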

How the results depend on the processing

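Of 408 counts of called members under other settings, 358 were within 1.5 times the reported count and 50 were not. Of 3128 values of single members 2913 kept direction and call, 192 lost and 22 gained the call, and 1 reversed: PTTG1 in pre-pro-B against pro-B controls ran from -0.3954 to 1.697 on the log2 scale as single libraries were left out. The pre-B counts of 38 members lower stayed within 1.5 times throughout. Quantile normalization gave 3 members lower for Rag2(-/-) deletion, 0 higher and 2 lower for knock-down, 1 higher for pre-B against total pro-B cells, 4 higher for the Rag2 background, and 0 and 1 lower for the Rag2 and c-Kit interactions. Median-ratio scaling gave 10 lower for Rag2(-/-) deletion, 0 higher for knock-down and 1 higher for pre-B against total pro-B cells. With only the compared groups in the fit there were 3 higher for pro-B deletion, 3 lower for Rag2(-/-) deletion, 1 higher for pre-B against total pro-B cells, 4 higher for the Rag2 background and 1 lower for the c-Kit interaction. With all 30 libraries in 1 fit there were 0 higher for pro-B deletion, 0 higher and 2 lower for knock-down, 7 lower for the Rag2 background and 2 lower for the Rag2 interaction. The Rag2 interaction had 0 lower without a filter and 0 without trend and robust moderation. With the replicate block knock-down had 2 higher and 11 lower, and the hairpins 1 higher. With the length trend removed, an alternative chosen after seeing the data, there were 1 higher for pre-B against total pro-B cells and 5 higher and 9 lower for the Rag2 background. A further alternative chosen after seeing the data left out the libraries on 2 step sizes. The cause of these moves was not tested.

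Leaving out 1 library at a time gave 0 to 1 higher and 0 to 2 lower for pro-B deletion, 0 to 2 higher for c-Kit-high deletion, 2 to 4 lower for Rag2(-/-) deletion, 1 to 2 lower for knock-down and 0 to 1 higher for pre-B against total pro-B cells. It gave 1 to 2 higher and 7 to 13 lower for the c-Kit fraction, 2 to 7 higher and 6 to 13 lower for the Rag2 background, 0 to 1 lower for the Rag2 interaction, 0 to 1 higher for the c-Kit interaction and 1 to 4 higher for the pre-pro-B stage. With 2 libraries a group these counts rest on single libraries, and the shallowest, at 2.34 M reads, limits the c-Kit-high comparisons.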
